A study of Mus musculus with 14 samples.

Results

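The genes of oxidative phosphorylation were followed in mouse back skin during the first day after ultraviolet (UV) irradiation. They were taken by symbol, as every gene of the expression table that starts with Nduf, Uqcr or Atp5, that is one of Sdha to Sdhd, or that starts with Cox followed by a digit of 4 to 8. The rule found 90 of the 10980 genes in the table. Of these, 79 encode subunits of the 5 complexes: 36 of complex I, 4 of complex II, 8 of complex III, 16 of complex IV and 15 of ATP synthase. The remaining 11 are 7 assembly factors of complex I (Ndufaf1 to Ndufaf7) and 4 paralogues or factors (Ndufa4l2, Cox7a2l, Atp5s and Atp5sl). Ndufa4 was counted in complex IV, where it is now placed. The mice were wild type C57BL/6, with depilated back fur. Full thickness skin was taken from untreated mice (0 h, 2 libraries) and after a mixed UV source 0.5, 2, 6, 12 and 24 h later (2, 3, 3, 2 and 2 libraries). No source used here gives the dose or the age of the mice. It is not stated whether libraries of one time are from different mice, so p-values measure the spread between these samples, which may be technical.

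Oxidative phosphorylation makes ATP in the inner mitochondrial membrane. Complexes I and II pass electrons from NADH and succinate to ubiquinone, complex III hands them to cytochrome c, and complex IV (cytochrome c oxidase) gives them to oxygen. Complexes I, III and IV pump protons, and ATP synthase uses the proton gradient. Most subunits are encoded in the nucleus, and the others in mitochondrial DNA; complex II has nuclear subunits only. Some subunits have tissue isoforms. The thin muscle layer under the skin belongs to a tissue rich in mitochondria.

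The 14 libraries fell into 3 sets. For 13 of them the number format and column names of the table tell the sets apart. The remaining one, an unirradiated library and 1 of only 2 such, was placed in set 2 by its time. With it, the times of set 2 match those of a replicate number in the titles, and those of set 3 would not. Its mean correlation was 0.964 with the libraries of set 2 and 0.888 with those of set 3. Set 1 had 6 libraries (all 6 times), set 2 had 5 (no 0.5 h) and set 3 had 3 (0.5, 2 and 6 h, with no unirradiated skin). The times of the sets match those of the replicate numbers in the titles. For set 2 this match was fixed by the placement of its unirradiated library. All changes below are log2 differences of FPKM + 1 from a limma fit with the set as a term, given with their standard error (SE), and a gene rose or fell if its limma adjusted p was under 0.05 over all 10980 genes. FPKM is a level per length of transcript, scaled by the depth of the library. Reads recovered for the listed genes summed to 12327907 to 13069488 a library in set 2 and 14739474 to 15550419 in set 3. They are the smallest whole numbers that give the ratios between libraries, and so lower bounds. The depth of set 1 is unknown. In sets 2 and 3 the lowest recovered count of a member over the libraries had a median of 729 over the members. Under 100 recovered reads in some library were found for 9 members. The keratinocyte markers, 9 of 10 measured, summed to 2960 to 8754 FPKM a library, and the skeletal muscle markers, 26 of 26, to 4078 to 11008 FPKM. Of 26 symbols of mitochondrially encoded subunits 0 were matched, and these subunits were not analysed here. The 6 h library of set 3 stood apart from the others for the members, and results that rest on it are given with and without it. It was singled out by the members' own values, so results without it are no independent test of the members.

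The genes of oxidative phosphorylation were among the most abundant transcripts of the skin. By mean FPKM over the 14 libraries, 64 of the 90 were among the 1098 highest of the 10980 genes, and their median was 116 FPKM, against 14.1 FPKM for all genes. The order of the medians was ATP synthase (305 FPKM), complex IV (260), complex III (247), complex I (99.2) and complex II (82.0), for gene means over all libraries. This order turned within sets: complex III was above complex IV in each library of set 1 (313 and 286 FPKM in unirradiated skin), and complex II was above complex I at 0, 2, 6 and 24 h in set 2 (71.8 and 63.0 FPKM in unirradiated skin). The 7 complex I assembly factors were far lower, with a median of 7.52 FPKM and a highest mean of 13.3 FPKM (Ndufaf2). All 15 ATP synthase and all 8 complex III genes were among these 1098, against 25 of 36 for complex I and 12 of 16 for complex IV. The highest means were those of Atp5b, the catalytic beta subunit of ATP synthase (794 FPKM), and Cox6a1, the general isoform of subunit 6a (651 FPKM). The lowest of complex IV was that of Cox4i2 (5.49 FPKM), an isoform of subunit 4 known from lung and from hypoxia, and the lowest of complex I that of the accessory subunit Ndufs5 (10.3 FPKM). The 90 genes together made up 2.75% to 3.21% of the listed FPKM in the libraries of set 1, 2.09% to 2.31% in those of set 2 and 2.52% to 3.33% in those of set 3.

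These levels depended on the library set more than on the time. The difference of set 2 minus set 1 (log2, mean of their 5 shared times) had a median of -0.78 over the members and -0.06 over all genes. For set 3 minus set 1 the medians were -0.32 over the members and -0.11 over all genes. The members have short transcripts, with a median of 1135 bases for the longest annotated one, against 3246 bases for all genes. The difference between sets was largest for the shortest transcripts, but above 1000 bases the members' medians did not follow length. Members under 700 bases (18 genes) had a median of -1.30 for set 2 minus set 1, against -1.18 for the other genes of that length at 20 FPKM or more (109 genes). For members of 2500 bases or more (14 genes) the median was -0.45, against -0.11 for other genes of that length. Levels are therefore read within a set. In unirradiated skin the median of complex II was 71.8 FPKM in set 2 and 80.9 FPKM in set 1, and that of complex III was 112 FPKM in set 2 and 313 FPKM in set 1. Ndufs5 was at 11.6 to 37.8 FPKM in set 1 but at 0 in all libraries of set 2 and at 0 to 0.129 in set 3. It has a near-identical copy annotated as a pseudogene, and 17 members in all have near-identical copies (blastn, at least 95% identity over 200 bases), and its values are uncertain. In addition, 32 members overlap a gene on the opposite strand, and without a stated strand the reads of such pairs cannot be told apart.

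**Figure D1:**
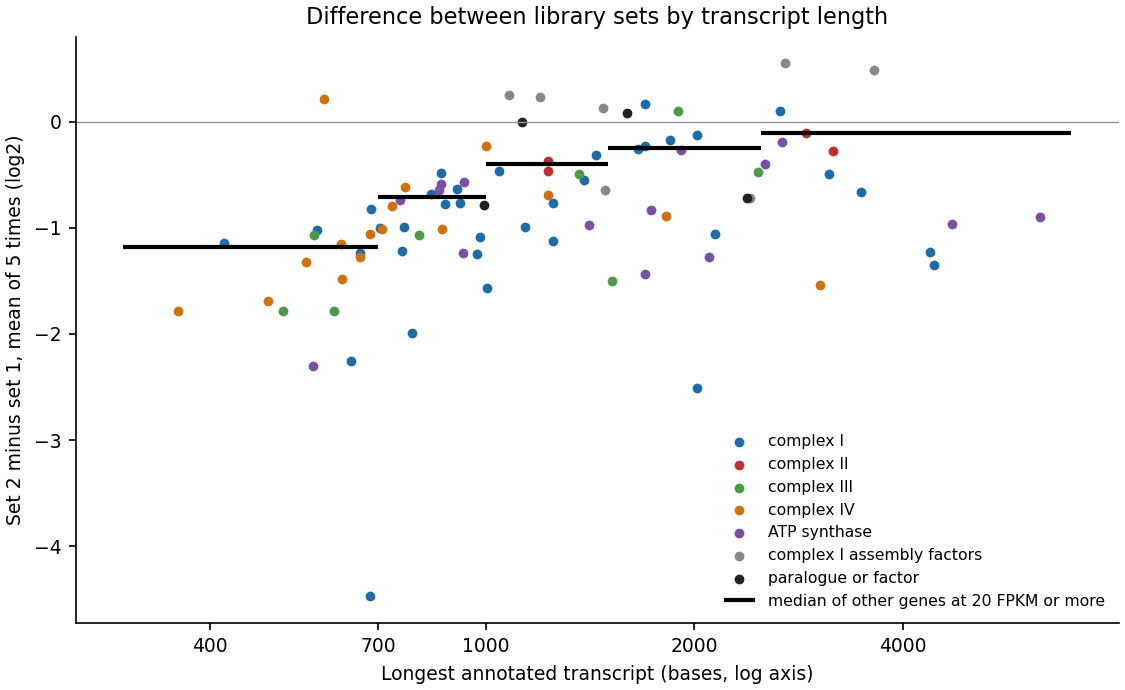
Difference of each member between library set 2 and set 1 (vertical axis, log2 of FPKM + 1, mean of 5 times) against the length of its longest annotated transcript in bases (log axis), coloured by complex, with black bars for the median of other genes at 20 FPKM or more in 5 length classes. Short members lie lowest, around a median of -1.30 under 700 bases, and Ndufs5 lies apart at -4.47.

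Promoters are shown for some general subunits and for muscle isoforms, to set their sequences side by side. A link between motifs and levels was not tested. RefSeq promoters (GRCm38.p6, 250 bases before the start to 50 after it) were matched to 75 of the 90 members. A motif of NRF1, a regulator of nuclear genes for mitochondrial proteins, was searched on both strands. It was spelled GCGCA and GCGC with any 1 base between them. This motif was in a promoter of 19 of the 75 members (25.3%), against 11.6% of the 8710 genes of the table with a promoter. The YY1 motif AAGATGGC was in 11 (14.7%, against 5.43%), and the ETS motif CCGGAAG, of the family of GABP, was in 17 (22.7%, against 20.5%). ETS and YY1 matches can share the letters AAG. The NRF1 motif was in a promoter of 6 of 14 ATP synthase genes and of 1 of 12 complex IV genes, Cox6a1. A match is only a run of letters. For the examples shown, the correlation with the mean of the other members was taken over the 14 libraries, as deviations from the set means. It was 0.902 for Ndufb4, 0.265 for Sdha and 0.778 for Cox6a1, which had NRF1 matches. For Cox7a1 and Cox8b, which had none, it was 0.436 and 0.558. Other members went the other way. Ndufaf4 and Ndufs5, with an NRF1 match, were at -0.409 and -0.085. Cox5a, Cox5b and Cox7c, with no match to any of the motifs, were at 0.951, 0.952 and 0.914. The promoters below are those of Ndufb4 (a membrane arm subunit of complex I) and Sdha (the flavoprotein of complex II), which had 3 NRF1 matches each, of Cox6a1, which had 2, and of the muscle isoforms Cox7a1 and Cox8b, which had no match to any of the motifs. Capitals mark NRF1 matches and, in Cox6a1, also 1 ETS match (CTTCCGG, the motif on the other strand).
Ndufb4, chr16:37654319-37654618, minus strand: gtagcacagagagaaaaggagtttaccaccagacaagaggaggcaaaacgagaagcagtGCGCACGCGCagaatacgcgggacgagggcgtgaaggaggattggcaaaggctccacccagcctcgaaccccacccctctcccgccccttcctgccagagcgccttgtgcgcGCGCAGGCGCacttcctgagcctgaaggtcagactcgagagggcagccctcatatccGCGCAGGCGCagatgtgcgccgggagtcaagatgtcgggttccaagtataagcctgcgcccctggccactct
Sdha, chr13:74350191-74350490, minus strand: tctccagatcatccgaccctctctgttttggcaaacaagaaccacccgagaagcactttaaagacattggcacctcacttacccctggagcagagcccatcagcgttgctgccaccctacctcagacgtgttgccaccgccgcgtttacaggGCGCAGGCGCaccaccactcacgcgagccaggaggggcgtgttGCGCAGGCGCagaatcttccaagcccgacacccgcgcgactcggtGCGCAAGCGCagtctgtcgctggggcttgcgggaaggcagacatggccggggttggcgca
Cox6a1, chr5:115348909-115349208, minus strand: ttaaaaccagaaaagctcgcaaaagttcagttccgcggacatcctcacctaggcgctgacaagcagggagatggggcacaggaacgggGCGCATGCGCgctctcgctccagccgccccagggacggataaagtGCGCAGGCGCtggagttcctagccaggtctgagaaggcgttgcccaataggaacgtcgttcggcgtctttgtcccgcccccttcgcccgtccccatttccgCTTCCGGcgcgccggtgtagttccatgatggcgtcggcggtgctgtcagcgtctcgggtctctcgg
Cox7a1, chr7:30183921-30184220, plus strand: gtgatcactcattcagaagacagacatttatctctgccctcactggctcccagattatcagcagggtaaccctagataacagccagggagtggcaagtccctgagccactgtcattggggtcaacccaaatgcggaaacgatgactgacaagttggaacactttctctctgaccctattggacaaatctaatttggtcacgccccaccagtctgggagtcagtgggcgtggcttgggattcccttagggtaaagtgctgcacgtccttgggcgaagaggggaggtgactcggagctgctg
Cox8b, chr7:140900397-140900696, minus strand: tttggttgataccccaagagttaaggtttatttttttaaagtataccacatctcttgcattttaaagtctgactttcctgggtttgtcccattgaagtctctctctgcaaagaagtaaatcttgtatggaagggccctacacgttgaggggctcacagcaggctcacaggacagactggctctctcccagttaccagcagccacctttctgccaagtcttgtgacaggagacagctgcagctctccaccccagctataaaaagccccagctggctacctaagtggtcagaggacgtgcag
The first 3 hold 23, 25 and 32 CG dinucleotides, and those of Cox7a1 and Cox8b hold 7 and 2.

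Most of the 90 genes lay slightly above unirradiated skin early after UV, by amounts too small to pass the test gene by gene. At 0.5, 2 and 6 h 0 members rose or fell by limma, while 0.1%, 2.79% and 4.32% of all genes did. At 12 and 24 h 1 member fell at each time, Ndufa4l2, while 3.23% and 1.87% of all genes fell. The F test over the 5 times called 1 member, again Ndufa4l2, and 4.92% of all genes. At an unadjusted p under 0.05, 17 members lay higher at 0.5 h and 13 at 2 h, which is 18.9% and 14.4% of the members against 3.24% and 5.24% of all genes, and 2, 1 and 1 did so at 6, 12 and 24 h, against 7.81%, 5.8% and 4.5% of all genes. These counts rested on few libraries. Without the 6 h library of set 3, singled out by the members' low values, the count at 6 h was 39, against 11.4% of all genes. Dropping that 6 h library also gave 26 at 2 h, against 7.51% of all genes. At 12 and 24 h it gave 4 and 6, against 8.9% and 7.59% of all genes. Other libraries mattered too. Leaving out the 6 h sample of set 1 or of set 2 brought the 6 h count to 0, against 7.69% and 5.63% of all genes. Without set 3's 2 h sample the 6 h count was 6, against 8.11%. At 0.5 and 2 h the counts fell if either unirradiated sample was dropped, as did the shares of all genes. The members' median was then 0.28 at 0.5 h in both fits. At 2 h it was 0.23 without the unirradiated sample of set 1 and 0.26 without that of set 2. The 0.5 h count, and the share of all genes, also fell without set 3's 0.5 h sample and rose without set 1's (medians 0.17 and 0.43). The 0.5 h count was 8 without set 2's 6 h sample and 30 without set 3's 2 h sample, against 2.12% and 4.52%. The 2 h count was 2 without set 3's 2 h sample and 6 without set 2's 6 h sample, against 3.77% and 4.15%. With the mean of the skeletal muscle markers as a covariate it was 0 at 2 h (against 1.13% of all genes), and with median-of-ratios scaling 45 (against 12.3%). The lowest adjusted p of a member was 0.275, 0.146 and 0.173 at 0.5, 2 and 6 h.

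The median change of the members was 0.29, 0.26, 0.12, 0.07 and 0.10 at 0.5, 2, 6, 12 and 24 h. Over all genes the medians were -0.01, -0.06, -0.02, -0.03 and 0.02. Of the 90 members, 87, 80, 75, 63 and 70 lay above unirradiated skin at these times, against 48.5%, 41.0%, 47.7%, 45.3% and 53.3% of all genes. The 5 comparisons share the same unirradiated libraries. The median SE of a member was 0.17 to 0.19, so a change of the usual size was not detectable for a single gene. The 95% interval of 86 of 90 members at 0.5, 2 and 6 h, and of 88 at 12 and 24 h, lay within a change of 1 in either direction. In whole skin, fewer cells of a type and less RNA per cell cannot be told apart. Genes of other cell types moved at the same times: of 10 fibroblast markers 2, 5, 3, 8 and 6 fell at the 5 times (median -1.17 at 0.5 h), of 9 measured keratinocyte markers 0, 3, 2, 3 and 3 fell, and of 10 measured monocyte and macrophage markers 0, 4, 1, 3 and 1 fell. In set 1 the fibroblast markers summed to 997 to 1688 FPKM after UV, against 2171 FPKM in its unirradiated library. In set 2 they summed to 1449 to 2276 FPKM, against 5370 FPKM. The keratinocyte markers summed to 4660 to 6232 FPKM after UV in set 1, against 8754 FPKM, and to 2960 to 4145 FPKM in set 2, against 4833 FPKM. For the monocyte and macrophage markers the sums were 89.7 to 146 FPKM in set 1, against 183 FPKM, and 110 to 318 FPKM in set 2, against 334 FPKM. Set 3 has no unirradiated library, and its sums for the 3 lists were 2038 to 2418, 5800 to 6736 and 303 to 374 FPKM. The part of these markers in the members' levels was not tested.

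**Figure D2:**
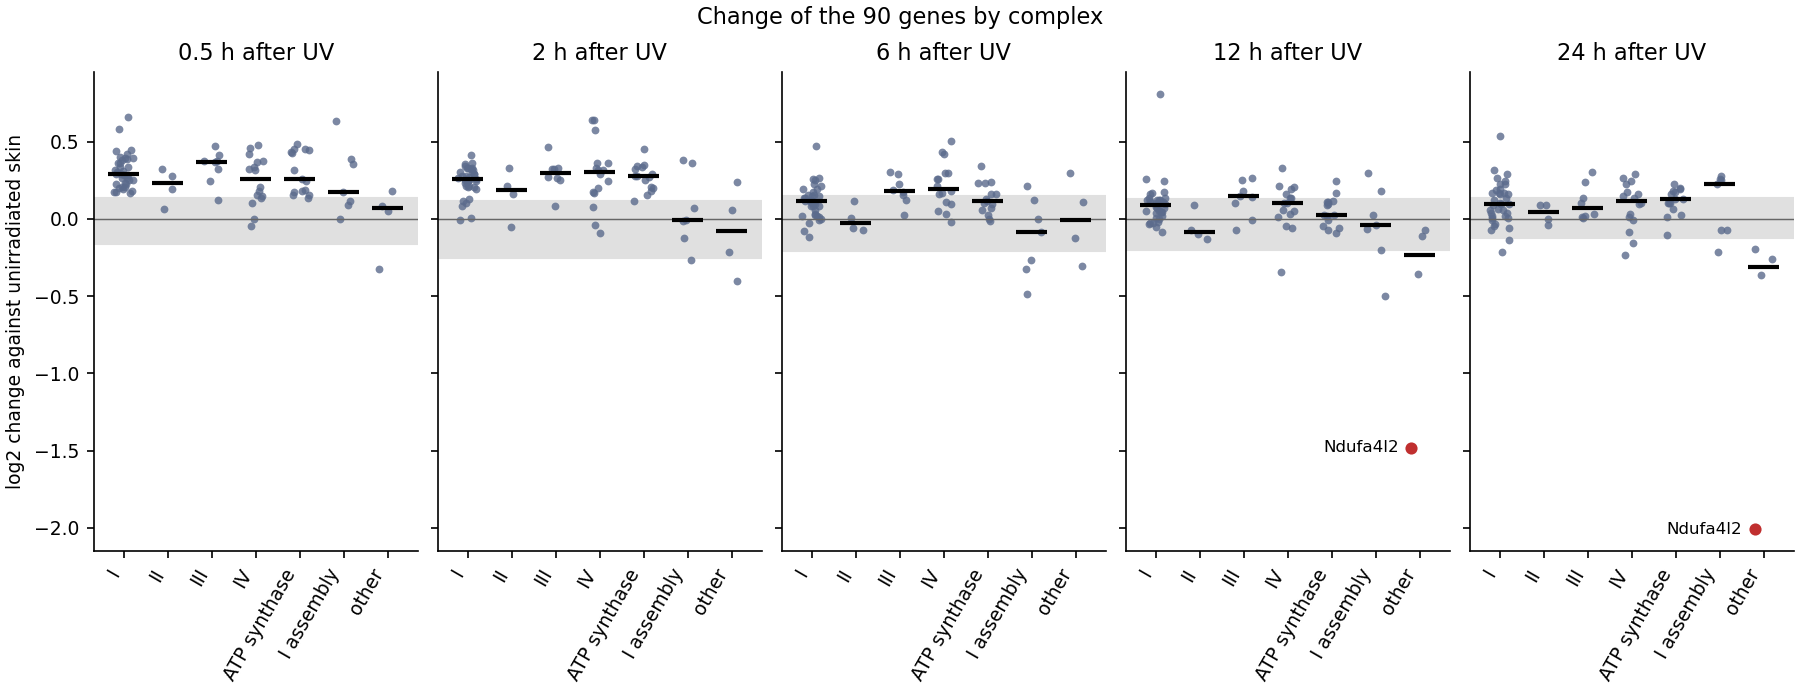
Log2 change of each of the 90 genes against unirradiated skin (vertical axis) at 5 times after UV, by complex, with black bars for the median of each class and a grey band for the middle 50% of all genes. At 0.5 and 2 h the medians of all 5 complexes lie above the grey band, and the gene that passed the test, Ndufa4l2, lies at -1.48 at 12 h and -2.01 at 24 h.

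Within single sets the direction was the same and the course differed. In set 1 the members' median difference from unirradiated skin was 0.20, 0.19, 0.32, 0.01 and 0.15 at 0.5, 2, 6, 12 and 24 h. In set 2 it was 0.16, 0.18, 0.10 and 0.04 at 2, 6, 12 and 24 h. Members that lay above unirradiated skin in both sets numbered 68 at 2 h and 75 at 6 h, or 75.6% and 83.3% of the members, against 26.7% and 32.2% of all genes. At 12 and 24 h they numbered 38 and 47 (42.2% and 52.2%, against 28.6% and 32.9%). The highest time of set 1 was thus 6 h, while 2 and 6 h were close in set 2.

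Set 3 had another course. Its 6 h library stood apart: the difference of 6 h minus 2 h within the set had a median of -0.53 over the members, with 6 of 90 higher at 6 h. Between the same times the median difference was 0.12 in set 1, with 75 of 90 higher, and 0.01 in set 2, with 47 of 90 higher. Over all genes the 6 h to 2 h difference of set 3 had a median of 0.07. The 6 h library of set 3 was singled out by these low values, so leaving it out raises the members' 6 h changes and is no independent test. Without it the members' median change was 0.17, 0.18 and 0.24 at 0.5, 2 and 6 h. In that fit 5 members rose at 6 h (Atp5l, Ndufc2, Ndufs6, Uqcrfs1 and Uqcrq), 5.56% of the members against 2.22% of all genes. Without all of set 3, 4 of these (all but Ndufs6) rose, as did 1.37% of all genes. The members' median at 6 h was -0.02 without the 6 h library of set 1 and 0.07 without that of set 2. Without the 0.5 h library of set 1 the median at 0.5 h was 0.43, and without that of set 3 it was 0.17.

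**Figure D3:**
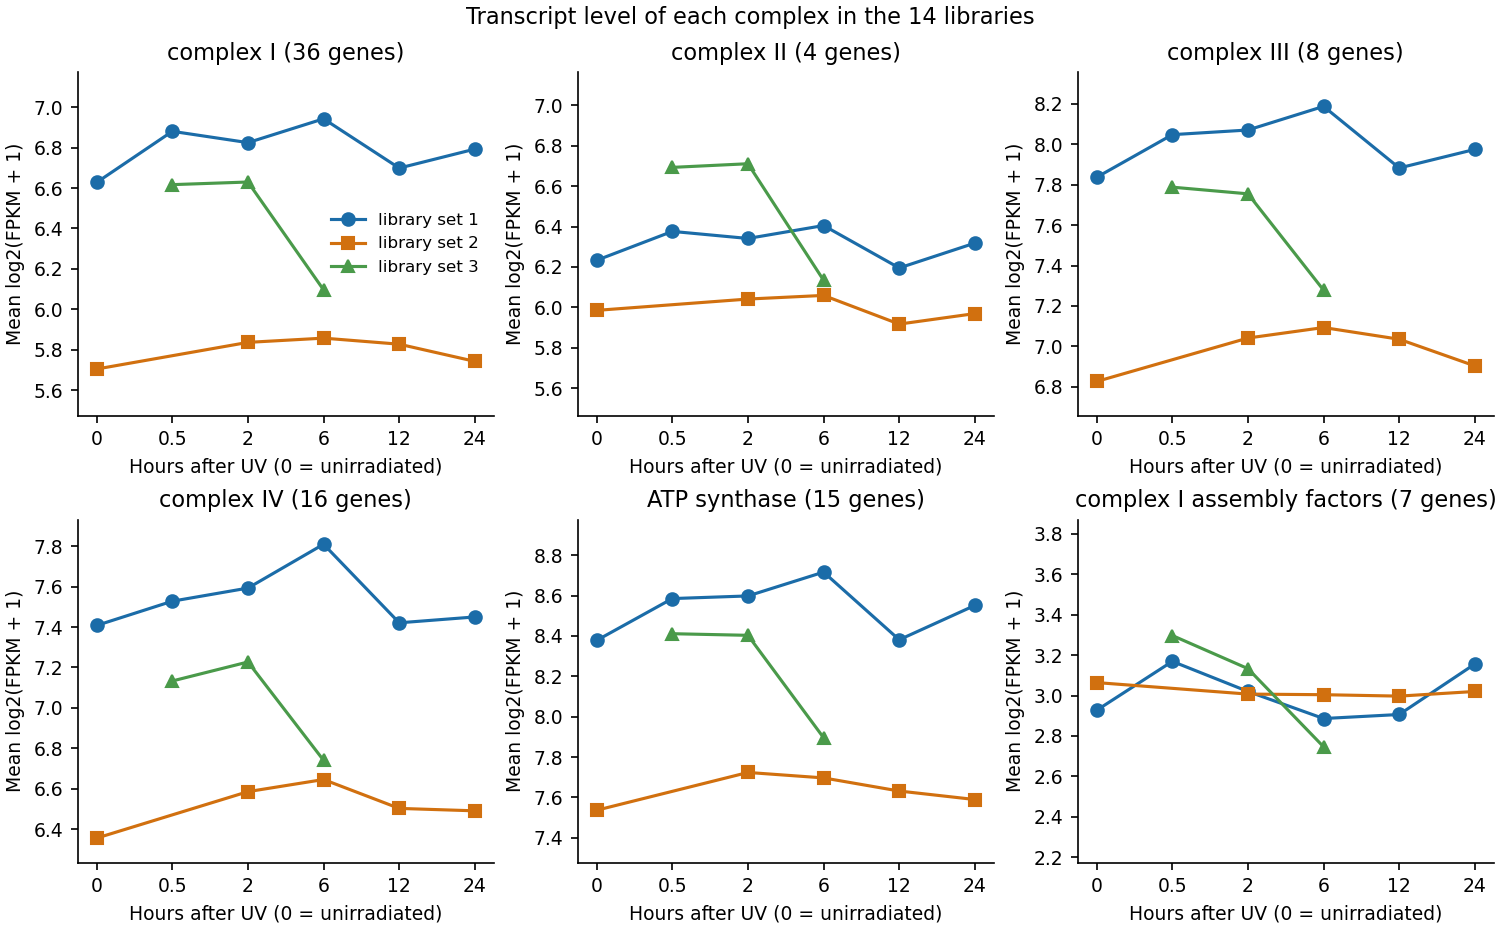
Mean log2(FPKM + 1) of the genes of each complex (vertical axis) in each of the 14 libraries against time after UV, with 1 line per library set. In sets 1 and 2 all 5 complexes lie a little higher at 2 and 6 h than at 0 h, and in set 3 every panel drops at 6 h.

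The complexes differed little from one another. At 0.5 h the median change was 0.29 for complex I, 0.23 for complex II, 0.37 for complex III, 0.26 for complex IV and 0.26 for ATP synthase. At 2 h the medians were 0.26, 0.19, 0.30, 0.31 and 0.28 in the same order of complexes. At 6 h they were 0.11, -0.03, 0.18, 0.20 and 0.12. The 12 h medians were 0.09, -0.09, 0.15, 0.10 and 0.03, and those of 24 h were 0.10, 0.05, 0.07, 0.12 and 0.13. In this fit complex II, the smallest, had the lowest median at all 5 times. Within set 1 complex IV lay below complex II at 0.5 h (0.13 and 0.17) and at 24 h (0.11 and 0.13). The differences between complexes were not tested, since the genes of a complex are not replicates of it. All 36 genes of complex I lay above unirradiated skin at 0.5 h and 35 at 2 h, and all 8 of complex III and all 15 of ATP synthase did so at both times. The median of the 7 core subunits of complex I, which carry its chemistry, was 0.20 at 0.5 h and 0.21 at 2 h, against 0.30 and 0.26 for its 29 accessory subunits.

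In complex I, 0 of 36 genes rose or fell at any time. Ndufv1, the core subunit that binds NADH, was at 73.8, 80.7, 85.0, 95.8, 75.1 and 76.6 FPKM at 0, 0.5, 2, 6, 12 and 24 h in set 1. In set 2 Ndufv1 was at 61.2, 68.8, 76.6, 72.7 and 59.3 FPKM at 0, 2, 6, 12 and 24 h, and in set 3 at 118, 144 and 97.9 FPKM at 0.5, 2 and 6 h. Its 6 h library was thus the highest of sets 1 and 2 and the lowest of set 3. Ndufs1, an iron-sulphur core subunit, did not follow the other genes: it was at 34.05 to 41.3 FPKM in set 1 and 35.4 to 40.1 FPKM in set 2, and at 18.6, 14.9 and 19.6 FPKM at 0.5, 2 and 6 h in set 3. Its change of -0.01 ± 0.11 at 2 h was the lowest of the complex. At that time the highest was Ndufa13, an accessory subunit also known as Grim19, with 0.42 ± 0.19 (limma adjusted p = 0.240). The highest at 6 and 24 h was Ndufs5 (0.47 ± 0.30 and 0.53 ± 0.32), which is uncertain for the reason above, and the lowest were Ndufa5 at 6 h (-0.12 ± 0.20) and Ndufv3 at 24 h (-0.22 ± 0.19), both accessory subunits.

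Complex II, succinate dehydrogenase, is shared with the citric acid cycle. Sdha, the flavoprotein, was at 68.4 to 76.0 FPKM in set 1, 60.3 to 67.2 FPKM in set 2 and 52.7 to 59.6 FPKM in set 3. Its changes were 0.07, -0.05, -0.07, -0.13 and -0.04 at the 5 times, each with an SE of 0.09 to 0.10. Sdhb, the iron-sulphur subunit, had the highest change at 2, 6 and 24 h (0.33 ± 0.19, 0.12 ± 0.19 and 0.09 ± 0.21). It was at 111, 128, 136, 151, 121 and 124 FPKM at the 6 times of set 1, at 93.1, 102, 105, 97.3 and 94.95 FPKM in set 2, and at 190, 214 and 120 FPKM in set 3. The membrane anchors were at 80.9 to 104 FPKM (Sdhc) and 40.5 to 47.9 FPKM (Sdhd) in set 1. In set 3 both were lowest at 6 h: Sdhc was at 155, 172 and 105 FPKM and Sdhd at 62.7, 56.8 and 34.2 FPKM at 0.5, 2 and 6 h. None of the 4 genes passed the test at any time.

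In complex III the highest change was that of the small subunit Uqcrq at 2 and 24 h and that of the Rieske iron-sulphur protein Uqcrfs1 at 6 h. Uqcrq was at 345, 422, 457, 501, 405 and 421 FPKM at the 6 times of set 1, at 124, 152, 161, 153 and 155 FPKM at 0, 2, 6, 12 and 24 h of set 2, and at 352, 412 and 247 FPKM at 0.5, 2 and 6 h of set 3. In sets 1 and 2 all UV libraries lay above the unirradiated one of their set. Its change was 0.46 ± 0.18 at 2 h (limma adjusted p = 0.179). At 24 h, where it was again the highest, it was 0.30 ± 0.19. Uqcrfs1 had the highest change at 6 h, 0.31 ± 0.12 (limma adjusted p = 0.173). It was at 99.0 FPKM in set 1 and 66.1 FPKM in set 2 at 6 h, against 74.0 and 51.0 FPKM in unirradiated skin. Without the 6 h library of set 3, Uqcrfs1 had a change of 0.39 (limma adjusted p = 0.0299) and Uqcrq one of 0.46 (adjusted p = 0.0257) at 6 h. That library was singled out by the members' low values, so these calls are no independent test. The core proteins had the lowest changes: Uqcrc2 had the lowest change at 2 and 6 h (0.08 ± 0.10 and 0.02 ± 0.10), and Uqcrc1 had the lowest at 24 h (0.01 ± 0.15). Uqcrc1 was at 161 to 221 FPKM in set 1, 119 to 144 FPKM in set 2 and 201 to 268 FPKM in set 3.

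In ATP synthase, Atp5a1 and Atp5b, the alpha and beta subunits of the catalytic head, did not pass at any time. Atp5b was at 736, 801, 809, 856, 729 and 770 FPKM at the 6 times of set 1, at 600, 675, 671, 622 and 663 FPKM in set 2 and at 1092, 1169 and 919 FPKM in set 3. Atp5a1 was at 353 to 440 FPKM in set 1, 315 to 362 FPKM in set 2 and 445 to 564 FPKM in set 3. The highest changes of the complex were those of Atp5e, the epsilon subunit, at 2 h (0.45 ± 0.16, limma adjusted p = 0.146), of Atp5l (subunit g) at 6 h (0.34 ± 0.17) and of Atp5j2 (subunit f) at 24 h (0.22 ± 0.20). The lowest were Atp5k (subunit e) at 2 h with 0.11 ± 0.21, Atp5c1 (the gamma subunit of the rotor) at 6 h with -0.02 ± 0.13, and Atp5g2 at 24 h with -0.11 ± 0.19. Atp5l was at 641, 304 and 367 FPKM at 6 h in sets 1, 2 and 3, against 421 and 240 FPKM in the unirradiated libraries of sets 1 and 2. Without the 6 h library of set 3, its change at 6 h was 0.47 (limma adjusted p = 0.0373). That library was left out for the members' low values, so this call is no independent test.

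Subunit c, which forms the rotor ring, is made from 3 genes with the same mature protein. Atp5g2 had the largest share of their summed FPKM, with 45.4% and 43.9% in the unirradiated libraries of sets 1 and 2. The share of Atp5g1 was 22.2% and 19.4% there, and it was 18.5% to 23.3% over all libraries. Over all libraries the share of Atp5g2 was 40.4% (24 h, set 2) to 52.1% (2 h, set 3), and it was the largest of the 3 in each library.

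In complex IV the general isoforms were high and did not pass at any time. Cox6a1 was at 795, 898, 970, 1092, 809 and 937 FPKM at the 6 times of set 1, at 289, 323, 350, 342 and 334 FPKM in set 2 and at 626, 788 and 557 FPKM in set 3. Cox4i1, the general subunit 4, was at 423 to 554 FPKM in set 1, 275 to 323 FPKM in set 2 and 459 to 647 FPKM in set 3. Cox8a was at 601 to 770 FPKM in set 1 and 241 to 284 FPKM in set 2, and Cox6b1 at 477 to 606 and 194 to 257 FPKM. Cox7a2 had the highest change of the complex at 24 h (0.29 ± 0.18). Cox6c had the lowest at 6 h, -0.02 ± 0.19. The minor isoforms were far below their partners. Cox4i2 made up 0.784% to 1.84% of the summed FPKM of Cox4i2 and Cox4i1, and it had the lowest change at 2 h (-0.09 ± 0.22). Cox6b2, known as a testis isoform, made up 0.896% to 4.24% of the sum with Cox6b1.

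The muscle isoforms of complex IV, Cox6a2, Cox7a1 and Cox8b, formed a group of their own. They take the place of Cox6a1, Cox7a2 and Cox8a in heart and skeletal muscle. Cox6a2 was at 103, 105, 108, 160, 107 and 73.2 FPKM at the 6 times of set 1. It was at 40.3, 67.1, 63.9, 47.0 and 40.8 FPKM at 0, 2, 6, 12 and 24 h of set 2 and at 64.3, 137 and 61.2 FPKM at 0.5, 2 and 6 h of set 3. It was thus highest at 6 h in set 1 and at 2 h in sets 2 and 3. Cox7a1 was at 60.6, 66.7, 66.7, 91.1, 68.5 and 38.8 FPKM in set 1, at 14.7, 26.6, 24.0, 13.5 and 18.6 FPKM in set 2 and at 18.1, 23.9 and 16.4 FPKM in set 3. Cox8b was at 81.5, 88.5, 104, 150, 110 and 77.7 FPKM in set 1, at 23.1, 34.3, 30.7, 27.3 and 30.0 FPKM in set 2 and at 19.99, 37.1 and 18.3 FPKM in set 3.

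At 2 h the changes of the muscle isoforms were 0.64 ± 0.28 (Cox6a2), 0.58 ± 0.25 (Cox7a1) and 0.64 ± 0.26 (Cox8b), with limma adjusted p = 0.219, 0.223 and 0.189. They were the 3 largest changes of complex IV at that time. At 6 h they were 0.42, 0.50 and 0.43. From 6 to 24 h, Cox6a2 and Cox7a1 had changes of -0.66 ± 0.28 and -0.66 ± 0.25 (limma adjusted p = 0.225 and 0.184) and Cox8b one of -0.29 ± 0.26. Without the 6 h library of set 3, singled out by the members' low values, the change of Cox6a2 from 6 to 24 h was -0.88. It passed (limma adjusted p = 0.0453), as did 2.03% of all genes in that direction. It also passed without all of set 3 (adjusted p = 0.0342), as did 1.47% of all genes. The share of Cox6a2 in the sum with Cox6a1 was 7.24% and 10.9% at 24 h in sets 1 and 2, against 12.8% and 15.4% at 6 h and 11.4% and 12.2% in unirradiated skin. That of Cox7a1 with Cox7a2 was 20.5% and 24.8% at 24 h, against 36.7% and 29.4% at 6 h and 35.1% and 22.8% in unirradiated skin. That of Cox8b with Cox8a was 10.2% and 9.9% at 24 h, against 16.3% and 10.4% at 6 h and 11.2% and 8.76% in unirradiated skin. Against unirradiated skin the shares at 24 h were thus lower for all 3 isoforms in set 1, and in set 2 lower for Cox6a2 and higher for Cox7a1 and Cox8b. In set 2 Cox7a1 had only 73 recovered reads at 0 h and 91 at 24 h, so its share there is uncertain. The 26 skeletal muscle markers moved with the 3 muscle isoforms. Their median change was 0.03, 0.65, 0.61, 0.22 and -0.18 at the 5 times and -0.79 at 24 h against 6 h, with 25 of 26 higher at 2 and at 6 h and 0 higher at 24 h against 6 h. Of the markers 0 rose, and 2 fell at 24 h against 6 h (Tcap, -1.75, and Myot, -1.09). In set 1 the markers summed to 6907 FPKM in unirradiated skin and to 8351, 11008 and 5122 FPKM at 2, 6 and 24 h. In set 2 they summed to 4415, 7832, 7211 and 4648 FPKM at 0, 2, 6 and 24 h. Set 3, with no unirradiated library, had 10066 FPKM at 2 h and 6713 FPKM at 6 h. The amount of muscle in each skin piece and the level per muscle fibre cannot be told apart. With the markers' mean as a covariate, the median of all 90 genes was 0.28, 0.22, 0.10, 0.06 and 0.11 at the 5 times.

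**Figure D4:**
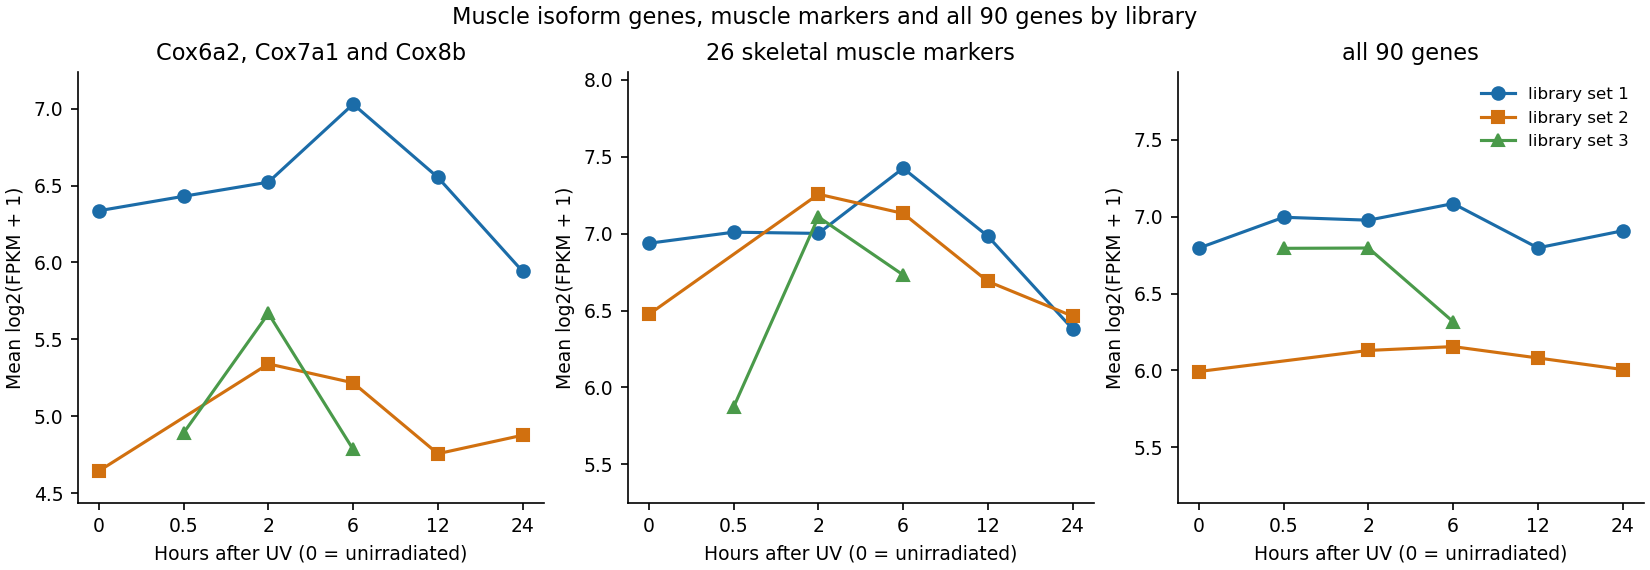
Mean log2(FPKM + 1) (vertical axis) of the 3 muscle isoform genes of complex IV, of 26 skeletal muscle markers and of all 90 genes in each of the 14 libraries against time after UV, with 1 line per library set. The isoforms and the markers are highest at 2 or 6 h in each set, and the mean of all 90 genes moves less.

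Ndufa4l2 was the member that passed the test, and it fell late after UV. It encodes a paralogue of Ndufa4 that is known as a target of hypoxia-inducible factor, as a brake on complex I under low oxygen and as a marker of pericytes and vascular smooth muscle cells. The gene lies on chromosome 10 (GRCm38, 127509274 to 127517154) and overlaps Shmt2 on the opposite strand. In set 1 it was at 133, 100.8, 105, 108, 30.6 and 35.1 FPKM at 0, 0.5, 2, 6, 12 and 24 h. In set 2 Ndufa4l2 was at 65.2, 54.4, 56.6, 34.9 and 14.1 FPKM at 0, 2, 6, 12 and 24 h, and in set 3 at 107, 89.99 and 152 FPKM at 0.5, 2 and 6 h. The 4 libraries at 12 or 24 h were at 14.1 to 35.1 FPKM, and the 10 earlier ones at 54.4 to 152 FPKM. This split follows the calls made on the same values, and set 3 has no late library. The share of all genes with such a split was not computed. Its change was -1.48 ± 0.29 at 12 h (limma adjusted p = 0.0214) and -2.01 ± 0.29 at 24 h (adjusted p = 0.00742). Against 6 h, which brings in 3 UV libraries in place of the unirradiated ones, it fell by 1.89 ± 0.27 at 24 h (adjusted p = 0.0133), with 1.2% of all genes falling in that comparison. At 0.5, 2 and 6 h its change was -0.33, -0.40 and -0.12 and did not pass.

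The calls of Ndufa4l2 rested on few libraries, while its direction at 12 and 24 h was the same in every fit run. Without the unirradiated library of set 1 its change was -1.35 at 12 h (limma adjusted p = 0.144) and -1.88 at 24 h (0.0739), and without that of set 2 it was -1.61 (0.105) and -2.14 (0.0510). Without the 12 h library of set 1 it was -0.87 at 12 h (0.124), and without the 24 h library of set 2 it was -1.72 at 24 h (0.0894) and -1.61 against 6 h (0.113). Without the 6 h library of set 2 the change against 6 h was -2.04 (0.0714), and with the muscle markers' mean as a covariate it was -2.24 (0.350). With no term for the set the adjusted p was 0.768 at 12 h, 0.424 at 24 h and 0.505 against 6 h.

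The paralogue Ndufa4 did not pass at any time. It was at 445, 475, 487, 630, 471 and 551 FPKM at the 6 times of set 1, at 271, 323, 348, 336 and 316 FPKM in set 2 and at 485, 370 and 325 FPKM in set 3. The share of Ndufa4l2 in the sum of both was 6.09% and 9.42% at 12 h and 6.00% and 4.27% at 24 h in sets 1 and 2, against 22.9% and 19.4% in unirradiated skin. Shmt2, a mitochondrial enzyme of folate metabolism on the other strand, did not pass (0.23 ± 0.14 at 12 h and 0.20 ± 0.14 at 24 h). Of 7 measured markers of pericytes and smooth muscle cells, a list chosen after these values were seen, 1 fell at 12 h and at 24 h, the smooth muscle myosin gene Myh11 (-0.93 and -1.20). Their medians were -0.60 and -0.05. They summed to 96.8 and 127 FPKM at 12 and 24 h in set 1, against 118 FPKM in unirradiated skin. In set 2 they summed to 85.5 and 143 FPKM, against 154 FPKM. At 6 h 1 of the 7 also fell, and their median was -0.54 at 0.5 h. In set 1 Myh11 was at 6.36 FPKM at 0 h and already at 2.09 FPKM at 0.5 h. In set 2 it was at 7.75 FPKM at 0 h and 4.82 FPKM at 2 h. Of 15 measured hypoxia-inducible genes, chosen likewise, 2 fell at 12 h (Egln3, -0.82, and Pdk1, -0.59) and 0 at 24 h, with medians of -0.17 and -0.001. Hif1a and Epas1, which encode the regulated subunits of hypoxia-inducible factor, fell at 6 h (-0.78 and -0.69) and did not pass at 12 or 24 h. The part of these genes and cells in the level of Ndufa4l2 was not tested.

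**Figure D5:**
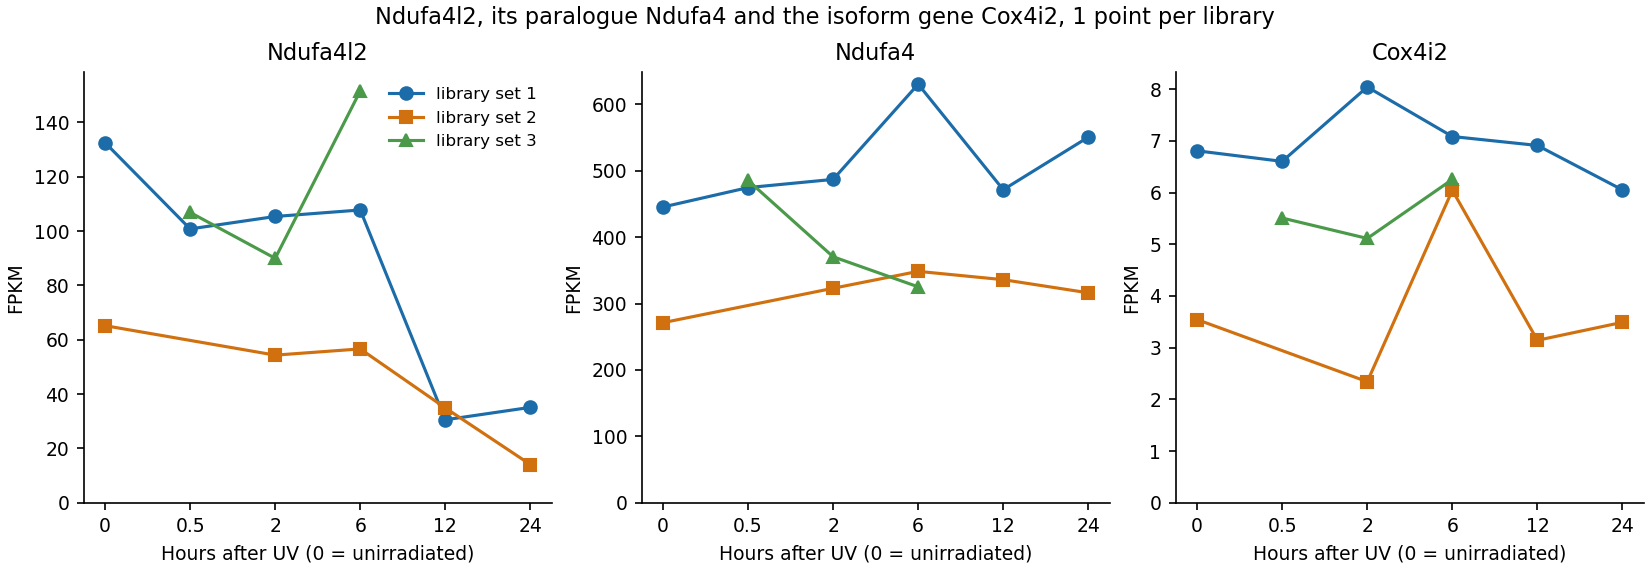
FPKM (vertical axes, from 0) of Ndufa4l2, of its paralogue Ndufa4 and of the isoform gene Cox4i2 in each of the 14 libraries against time after UV, with 1 line per library set. The 4 libraries at 12 and 24 h have 14.1 to 35.1 FPKM of Ndufa4l2, below the other 10, while Ndufa4 shows no such step.

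Among the assembly factors and other factors, Ndufaf2 had the largest early change, 0.64 ± 0.18 at 0.5 h (limma adjusted p = 0.275), and 0.38 ± 0.16 at 2 h. Ndufaf3 had the lowest of its class at 2, 6 and 24 h (-0.27 ± 0.21, -0.48 ± 0.21 and -0.22 ± 0.22). The median of the 7 complex I assembly factors was 0.17, -0.01, -0.08, -0.04 and 0.22 at the 5 times. Atp5sl, which despite its symbol helps to build the membrane arm of complex I in human cells, did not pass at 24 h against 6 h (-0.49 ± 0.12, limma adjusted p = 0.0530). It was at 17.5 and 9.16 FPKM at 24 h in sets 1 and 2, against 24.9, 14.7 and 15.7 FPKM at 6 h in sets 1, 2 and 3, and it fell after quantile normalization and after median-of-ratios scaling, as did 1.73% and 1.43% of all genes. Cox7a2l, a factor of respiratory supercomplexes, was at 109 to 171 FPKM in set 1, 100.04 to 159 FPKM in set 2 and 189 to 258 FPKM in set 3. Atp5s, a coupling factor of ATP synthase, had a change of -0.30 ± 0.20 at 6 h.

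Genes around the complexes were also mostly below the threshold. Of the electron carrier genes Cycs and Cyc1 and the ATP synthase inhibitor gene Atpif1, 0 passed, with a median change of 0.36, 0.30, 0.13, 0.14 and 0.17 at the 5 times. Of 36 measured assembly factors of all complexes outside the 90 genes, 2 fell at 6 h, the complex I factors Timmdc1 (-0.65 ± 0.11) and Acad9 (-0.55 ± 0.12), and 0 at the other times. Of 14 measured regulators of mitochondrial biogenesis 0 passed. Of 18 citric acid cycle genes 0 passed against unirradiated skin, and fumarase (Fh1) rose at 24 h against 6 h (0.37 ± 0.09). Of 18 measured glycolysis genes 2 fell at 6 h, the glucose transporter gene Slc2a1 (-1.08 ± 0.15) and the hexokinase gene Hk1 (-0.87 ± 0.13), and Hk1 fell at 12 h (-0.85 ± 0.13). From 6 to 24 h Slc2a1 rose by 1.27 ± 0.15 and the muscle phosphofructokinase gene Pfkm fell by 0.90 ± 0.20. Of 12 measured fat cell markers, Pparg fell at 6 h (-0.91 ± 0.14) and rose from 6 to 24 h (0.66 ± 0.14).

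The members resembled one another across libraries. As deviations from the set means over the 14 libraries, a member's correlation with the mean of the other members had a median of 0.90 for ATP synthase, 0.90 for complex II, 0.87 for complex III, 0.85 for complex I and 0.81 for complex IV. It was 0.50 for the complex I assembly factors and 0.25 for the paralogues and factors. These points share libraries, depth and the low 6 h library of set 3, so the values describe these libraries alone. The least alike were Ndufaf4 (-0.41), Ndufs1 (-0.24) and Atp5s (-0.14), and Ndufa4l2 was at 0.03. Outside the 90 genes, Pebp1 (0.97), Brk1 (0.96) and Nudt19 (0.95) had the profiles most like the members' mean over the 14 libraries.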

How the data were processed

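Total RNA of full thickness back skin was extracted with Trizol and sequenced from Illumina libraries, per the labels' protocols. The authors deposited 1 table of FPKM values for 10980 genes and 14 libraries. The submitters' processing notes give the mouse build mm10 and the tools TopHat2 2.1.0 and Cufflinks 2.2.1, without settings. FPKM is scaled by length and depth, so no count model was the main test. The strandedness of the libraries is not stated.

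The column names of the table give the time but no replicate number. Number formats and headers split all libraries but 1 into 3 sets. The remaining library, unirradiated, was placed in set 2, where the times then match those of a replicate in the titles. The times of the 3 sets match those of replicates 2, 1 and 3, for set 2 because of this placement. The mean correlation of the placed library was 0.964 with set 2 and 0.888 with set 3. In all 28 pairs of different times within a set, libraries deviated together from their time means (correlation 0.411 to 0.895), and the set is treated as pairing the samples. Between sets the correlation was -0.859 to 0.492. At a time with 2 libraries their deviations mirror each other, so low values between sets partly follow from the arithmetic. They add no support for the pairing. Whole reads were recovered from the exact ratios between columns of sets 2 and 3, as the smallest whole numbers that give them. This was done for 10954 genes (100% of those above 0, relative tolerance 1e-13), and the reads served for depth alone. Listed values summed to 617748 to 700429 FPKM a library (set 1), 441072 to 474898 (set 2) or 513837 to 558821 (set 3), and precision rests on 2 or 3 libraries a time.

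Values were tested as log2(FPKM + 1), a scale that understates changes of low genes, with limma 3.58.1 in R 4.3.3. The model held time and library set over all 14 libraries, 6 residual degrees of freedom and a trend of the variance with intensity. The two-sided p-values of all 10980 genes were adjusted by Benjamini and Hochberg, with 0.05 as the threshold; the method was checked on simulated data. The median residual SD was 0.155 with the set and 0.335 without it. The members, gene lists and model were chosen with earlier results of these data known. Named genes are those past the threshold, the highest and lowest change of each complex at 2, 6 and 24 h, a fixed list of isoforms and core subunits, and the 3 most similar other genes. The lists of mural cell markers, hypoxia-inducible genes and hypoxia-inducible factor subunits were chosen after the values were seen. Alternatives were no set term, a pseudocount of 0.1, a minimum mean of 5 FPKM, quantile normalization, median-of-ratios scaling, the muscle marker mean as a covariate, no intensity trend, sets 1 and 2 each alone and each library left out. Leaving out set 3 was added after the data were seen. Sequences, lengths and overlaps come from RefSeq and GENCODE annotation of GRCm38, and near-identical copies from blastn 2.17.0.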

Additional observations from a re-analysis of the deposited data

How the results depend on the processing

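With no term for the library set (the replicate block), limma called 0 members at 12 h, at 24 h, at 24 h against 6 h and by the F test, against 1 each with it, and the members' median change at 0.5 h was 0.5628. Without that term 0 of all genes were called at 12 h, at 24 h and at 24 h against 6 h. Within set 1 alone the median at 6 h was 0.3183. At 24 h against 6 h, 2 members (Ndufa4l2 and Atp5sl) were called after quantile normalization and after median-of-ratios scaling, and 0 with the muscle marker mean as a covariate, which also left 0 by the F test. Of all genes, 1.73% and 1.43% fell there after these normalizations, and with the covariate 2 fell and 0 rose. Without set 3, 4 members were called at 6 h, higher, as were 1.37% of all genes. In that fit 3 were called at 24 h against 6 h (Ndufa4l2, Atp5sl and Cox6a2, lower), as were 1.47% of all genes. Leaving out 1 library gave 0 to 5 calls at 6 h, with 5 without the 6 h library of set 3, and 0 to 1 at 12 and at 24 h. Without the 6 h library of set 3, 2.22% of all genes rose at 6 h. At 24 h against 6 h, leaving out 1 library gave 0 to 4 calls. There were 4 without the 6 h library of set 3 (Ndufa1 in addition), where 2.03% of all genes fell. There were 2 without the 2 h library of set 3 (Atp5sl in addition), where 136 of 10980 genes fell. There were 0 without the 6 h library of set 2, where 5 genes fell. For the F test the share of all genes is given for all 14 libraries only (4.92%). The F test gave 0 to 2, with 2 when the 6 h library of set 3 or either 24 h library was left out and 0 when the unirradiated library of set 2 was. Over these fits the members' median lay at 0.167 to 0.427 at 0.5 h, 0.18 to 0.319 at 2 h, -0.018 to 0.239 at 6 h, -0.011 to 0.14 at 12 h and 0.055 to 0.144 at 24 h. The median of 12 h was -0.011 without the 12 h library of set 2 and 0.14 without that of set 1. No called value changed sign under any alternative run. The median SE of a member, 0.167 to 0.192, limits what 2 or 3 libraries a time could show.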
